A study of Homo sapiens with 8 samples.

Results

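Aminoacyl-tRNA synthetases are the enzymes that join each amino acid to its transfer RNA, and 36 of their genes were followed in RNA-sequencing counts that list 23228 genes. The genes were taken from a fixed list of names, 20 for the enzymes of the cytosol and 16 for those of the mitochondrion, whose names end in 2. All 36 passed the filter on low counts that left 13915 genes for testing.

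The 8 libraries were made from total RNA, and their labels name the human glioblastoma cell line U87 MG, grown in serum-containing medium. They form 4 groups of 2: unmodified cells (control), cells whose estrogen receptor beta was knocked out with CRISPR/Cas9 (ERb_KO), and knockout cells that had the isoform ERbeta1 (ERb1) or ERbeta5 (ERb5) reintroduced. The ERb1 and ERb5 cells therefore also carry the knockout, and the labels do not say whether the knockout line was a single clone, how the isoforms were expressed, or whether the paired libraries of each group are separate cultures. P-values measure the spread between these samples, which may be technical. The series title asks whether the isoforms of the receptor differ in their effects in glioblastoma.

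Each library held 26760897 to 48076414 counts in genes. Neither the targeted gene nor the cell line's markers bore the labels out, and group names below mean the libraries so labelled. ESR2, the gene of estrogen receptor beta, had 25 and 20 counts in the control libraries, 23 and 21 for ERb_KO, 6 and 18 for ERb1 and 7 and 10 for ERb5, which neither checks the knockout nor shows a reintroduced isoform. Of 10 glial and mesenchymal glioma markers, 4 were under 1 CPM (counts scaled to a common library size) in all 8 libraries, with OLIG2 and POSTN at 0 in each and GFAP between 0.0459 and 0.136 CPM. Luminal epithelial markers summed to 12500 to 18400 CPM against 139 to 290 CPM for the glioma markers, and the keratin KRT8 alone had 2060 to 4450 CPM. The 6 immune and endothelial markers summed to 4.11 to 13.3 CPM. Each gene's log2 level was also taken relative to its mean over the 8 libraries. In both ERb_KO libraries this relative level fell with transcript GC content (r = -0.56 and -0.46 across 13254 genes). The genes are not independent. In the other 6 libraries r ran from -0.137 to 0.351.

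A synthetase activates its amino acid with ATP and passes it to the matching transfer RNA, and most amino acids have an enzyme for the cytosol and another for the mitochondrion, which translates its own genome. All of them are encoded in the nucleus, and GARS and KARS each serve both compartments from a single gene. In human cells 8 of the cytosolic enzymes sit in a multi-synthetase complex held by the scaffold proteins AIMP1, AIMP2 and EEF1E1. Many cytosolic synthetase genes are known targets of ATF4, the transcription factor of the amino acid and stress response. ATF4 binds, with a C/EBP partner, a composite element spelled here TGATGNAA.

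That element was looked for on both strands of the RefSeq promoters of build GRCh38.p14, from 250 bases before to 50 bases after the annotated start. The table held 30 of the 36 genes, and DARS, LARS, VARS, YARS, AARS2 and VARS2 were unmatched. The element occurred in 6 of 16 cytosolic promoters (37.5%) and in 1 of 14 mitochondrial ones (7.14%), against 1003 of 27305 promoters of the same length (3.67%). The matches are shown because AARS, IARS, MARS, NARS and TARS are among the genes that fell in the comparisons with ERb_KO. Each is printed 5′ to 3′ on the strand of the gene with 10 bases on either side and the matched letters in capitals (TTGCATCA is the element read from the other strand).
AARS: tttctcgcagTTGCATCAgccaagttag
CARS: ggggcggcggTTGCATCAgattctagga
IARS: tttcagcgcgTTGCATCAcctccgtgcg
MARS: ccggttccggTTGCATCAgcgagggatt
NARS: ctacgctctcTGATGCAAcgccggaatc
TARS: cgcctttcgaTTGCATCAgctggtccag
YARS2: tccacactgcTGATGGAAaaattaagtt
The excerpts lie at chr16:70289676-70289703 (AARS, minus strand), chr11:3057408-3057435 (CARS, minus), chr9:92293693-92293720 (IARS, minus), chr12:57488054-57488081 (MARS, plus), chr18:57621805-57621832 (NARS, minus), chr5:33440957-33440984 (TARS, plus) and chr12:32756077-32756104 (YARS2, minus). The 5 cytosolic matches in AARS, CARS, IARS, MARS and TARS have the same 8 letters. The NARS match is those same letters read from the other strand. A match is a description of letters, not of a bound site.

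The 250 bases before the start of IARS and of SARS are shown whole, since these genes had the largest falls in ERb5 against ERb_KO among the cytosolic members and only IARS has the element there (capitals). They are chr9:92293698-92293947 on the minus strand and chr1:109213643-109213892 on the plus strand.
IARS: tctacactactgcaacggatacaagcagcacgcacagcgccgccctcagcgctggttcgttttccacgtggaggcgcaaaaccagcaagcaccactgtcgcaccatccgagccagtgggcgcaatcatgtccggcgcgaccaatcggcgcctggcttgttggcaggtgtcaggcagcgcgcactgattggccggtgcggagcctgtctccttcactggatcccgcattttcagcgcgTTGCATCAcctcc
SARS: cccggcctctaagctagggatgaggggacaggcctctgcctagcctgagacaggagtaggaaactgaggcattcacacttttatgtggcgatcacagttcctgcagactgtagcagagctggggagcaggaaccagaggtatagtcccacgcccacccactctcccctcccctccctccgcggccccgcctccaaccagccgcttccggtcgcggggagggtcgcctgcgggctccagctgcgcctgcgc
In the IARS promoter the element lies at bases -13 to -6 from the start, and an E-box (CACGTG) lies at -186 to -181. Of the other elements searched on both strands, CACGTG was in 6.25% of cytosolic, 21.4% of mitochondrial and 7.43% of all promoters. The interferon-stimulated response element was in 0 of 16 cytosolic promoters, WARS included, in 1 of 14 mitochondrial ones and in 3.65% of all. The STAT element TTCNNNGAA was in 12.5%, 14.3% and 7.88%.

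Levels differed more between genes than between groups. Per kilobase of transcript, and as a mean of the 8 libraries, AARS had the highest level at 551 CPM per kb, followed by WARS (320), SARS (265) and GARS (215), and the lowest cytosolic member was FARSB at 16.2. Mitochondrial members ran from 4.94 CPM per kb for PARS2 to 32.7 for RARS2, with IARS2 apart from them at 88.9. For the 15 pairs of enzymes that charge the same amino acid, the cytosolic gene was above its mitochondrial counterpart in every library except for IARS in the ERb5 libraries. There the log2 ratio of IARS to IARS2 per kb was -0.08 and -0.05, against 0.52 to 0.87 in control and ERb_KO. The summed level of the 20 cytosolic genes was 8230 and 7920 CPM in the control libraries, 8730 and 9060 for ERb_KO, 6740 and 6590 for ERb1 and 6150 and 6540 for ERb5. That of the 16 mitochondrial genes stayed between 853 and 972 CPM. In bulk RNA, fewer cells of a type and less RNA per cell cannot be told apart.

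**Figure D1:**
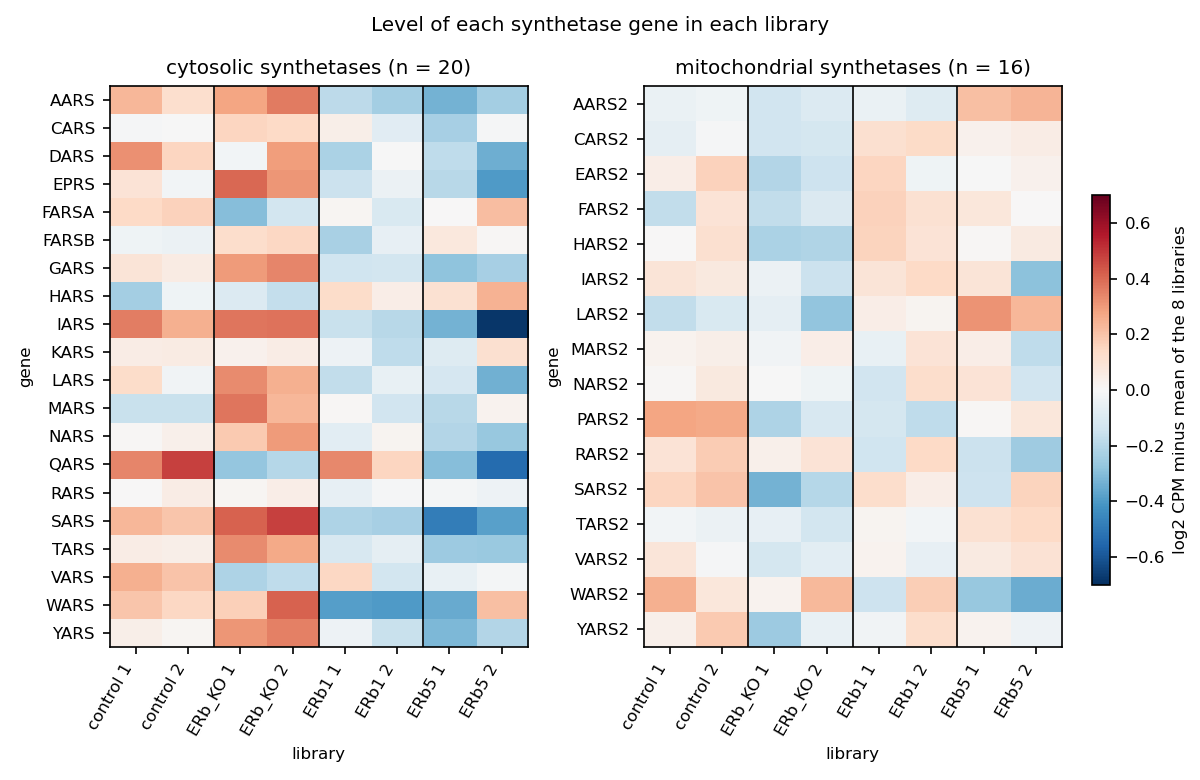
Level of each synthetase gene in each of the 8 libraries, as log2 CPM minus the gene's mean over the libraries (colour scale), with cytosolic genes on the left and mitochondrial genes on the right. Most cytosolic genes are high in the ERb_KO columns and low in the ERb1 and ERb5 columns. HARS, VARS, FARSA, QARS, DARS, KARS and RARS are among those with other patterns. Mitochondrial genes are mostly low in ERb_KO.

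Against the knockout, cytosolic synthetase genes were lower in both isoform groups. In ERb1, 10 of 20 fell and 1 rose, where 24.9% of all genes tested were called, 12.5% as lower and 12.4% as higher. In ERb5, 11 fell and 2 rose, where 28.2% were called, 13.5% as lower and 14.7% as higher. The median log2 fold change of the 20 genes was -0.32 in ERb1 and -0.39 in ERb5, beside 0 and 0.01 for all genes. With each library's trend on GC and length removed, the medians were -0.2 and -0.34 (all genes 0.01 and 0). The libraries of the groups did not overlap for 15 of 20 genes in the lower direction in each comparison, against 31.9% and 33.3% of all genes. Both comparisons use the same ERb_KO libraries, so they are not independent of each other. The same 9 genes fell in both, namely AARS, EPRS, GARS, IARS, LARS, MARS, SARS, TARS and YARS. Markers of cell type moved beside these falls. Of 10 luminal epithelial markers, 5 rose in ERb1 (median 0.26) and 4 in ERb5 (median 0.17), with KRT8 up by 1.00 ± 0.11 and 0.99 ± 0.11 (edgeR adjusted p = 0.000154 and 0.00037), while 4 and 3 of the 10 were below 0. Of the 6 glial and mesenchymal markers tested, 4 fell in ERb1 (median -1.12) and 2 in ERb5 (median -0.65). In ERb_KO against control, 2 luminal markers fell and 0 rose, with KRT8 down by 0.59 ± 0.11 (edgeR adjusted p = 0.0075). There 1 glial and mesenchymal marker rose. In that comparison 4 luminal markers were above 0 and 6 below (median -0.07). Of the glial and mesenchymal ones, 3 were above and 3 below (median -0.08). Against control, 1 luminal marker rose and 0 fell in each isoform group, and 3 glial and mesenchymal markers fell in ERb1 and 1 in ERb5. Among all genes, 17.5%, 4.06% and 13.2% were called in ERb_KO, ERb1 and ERb5 against control. The part of these shifts in the synthetase results was not tested.

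SARS, the serine enzyme (chr1:109756540-109780804, GRCh37, plus strand), had 577 and 562 CPM in the control libraries, 655 and 684 for ERb_KO, 423 and 419 for ERb1 and 351 and 378 for ERb5. Both isoform groups lay below control and ERb_KO with no overlap. The log2 change from ERb_KO was -0.67 ± 0.09 in ERb1 (SE, edgeR adjusted p = 0.000569) and -0.88 ± 0.09 in ERb5 (adjusted p = 0.000243).

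IARS, the isoleucine enzyme (chr9:94972489-95056136, minus strand), had 645 and 598 CPM in the control libraries, 651 and 653 for ERb_KO, 451 and 440 for ERb1 and 399 and 314 for ERb5. Control and ERb_KO were close together, and all 4 isoform libraries were lower. IARS fell by 0.55 ± 0.12 on the log2 scale in ERb1 (edgeR adjusted p = 0.00646) and by 0.87 ± 0.12 in ERb5 (adjusted p = 0.000822).

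AARS, the alanine enzyme and the most abundant member, had 2190 and 2020 CPM in the control libraries, 2260 and 2400 for ERb_KO, 1640 and 1580 for ERb1 and 1480 and 1580 for ERb5. It fell by 0.53 ± 0.1 in ERb1 and by 0.61 ± 0.1 in ERb5 (edgeR adjusted p = 0.0034 and 0.00241). GARS, the glycine enzyme of both compartments, had 551 and 539 CPM in the control libraries, 636 and 657 for ERb_KO, 471 and 474 for ERb1 and 426 and 441 for ERb5. Its falls were 0.45 ± 0.09 and 0.58 ± 0.09 (adjusted p = 0.00468 and 0.00202). For both genes the isoform libraries were below every control and ERb_KO library. KARS, the other enzyme of both compartments (lysine), had 293 to 359 CPM over all 8 libraries and passed in no comparison.

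YARS (tyrosine) had 316 and 310 CPM in the control libraries, 381 and 393 for ERb_KO, 300 and 276 for ERb1 and 247 and 267 for ERb5, and fell by 0.43 ± 0.09 and 0.59 ± 0.1 (edgeR adjusted p = 0.00812 and 0.00229). TARS (threonine) had 251 and 249, 305 and 291, 224 and 232, and 203 and 202 CPM in the same order, and fell by 0.38 ± 0.09 and 0.56 ± 0.09 (adjusted p = 0.0101 and 0.00219). In both genes ERb_KO was the highest group and ERb5 the lowest. EPRS, a single protein with the glutamate and proline activities, had 492 and 455 CPM in the control libraries, 608 and 570 for ERb_KO, 415 and 448 for ERb1 and 402 and 350 for ERb5. It fell by 0.45 ± 0.1 and 0.65 ± 0.11 (adjusted p = 0.0107 and 0.00234). LARS (leucine) had 265 and 239, 305 and 288, 215 and 234, and 224 and 192 CPM, and fell by 0.4 ± 0.11 and 0.51 ± 0.11 (adjusted p = 0.0199 and 0.00737). MARS, the methionine enzyme, fell by 0.37 ± 0.11 and 0.39 ± 0.11 (adjusted p = 0.0276 and 0.0216). Its annotated span overlaps ARHGAP9 over 13370 bases and DDIT3, a gene of the stress response, over 982 bases, both on the opposite strand. YARS overlaps S100PBP on the opposite strand over 1265 bases. Other members, AARS, KARS and WARS among them, also overlap a gene of the opposite strand. Reads of such pairs cannot be told apart there without the strand setting of the counting.

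NARS (asparagine) had 199 and 203 CPM in the control libraries, 225 and 244 for ERb_KO, 188 and 201 for ERb1 and 172 and 165 for ERb5. It fell in ERb5 by 0.48 ± 0.09 (edgeR adjusted p = 0.00568), while the ERb1 change of -0.27 ± 0.09 missed the threshold (adjusted p = 0.0566). DARS (aspartate) had 98.1 and 87.5, 77.8 and 96.4, 67.4 and 78.5, and 69.5 and 62.2 CPM, and fell in ERb5 by 0.4 ± 0.13 (adjusted p = 0.0391). The ERb_KO libraries lay further apart for DARS than for any other member. DARS has the lowest transcript GC content of the 36 (38.14%), and with each library's trend on GC and length removed its change was -0.04 (adjusted p = 0.792). CARS and RARS, the cysteine and arginine enzymes, passed in neither comparison, with changes of -0.16 and -0.26 for CARS and of -0.06 and -0.06 for RARS. With the trend removed CARS passed as lower in both (-0.24 and -0.36, adjusted p = 0.037 and 0.00924).

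The calls in AARS, GARS, IARS, SARS and YARS against ERb_KO in ERb1 held under all 15 alternatives. Without ERb_KO 1, 6 cytosolic genes were called in ERb1 and without ERb1 1, 5; EPRS, LARS, MARS, QARS and TARS were lost in both cases (adjusted p = 0.0599 to 0.147). In ERb5, 9 of 13 calls (AARS, EPRS, GARS, IARS, LARS, NARS, SARS, TARS and YARS) held under all 15, and DARS, FARSA, HARS and MARS did not. Removing the GC and length trend moved EPRS to -0.26 and -0.42 and LARS to -0.19 (adjusted p = 0.09) and -0.26 in ERb1 and ERb5, TARS to -0.22 and -0.37, and NARS in ERb5 to -0.25.

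**Figure D2:**
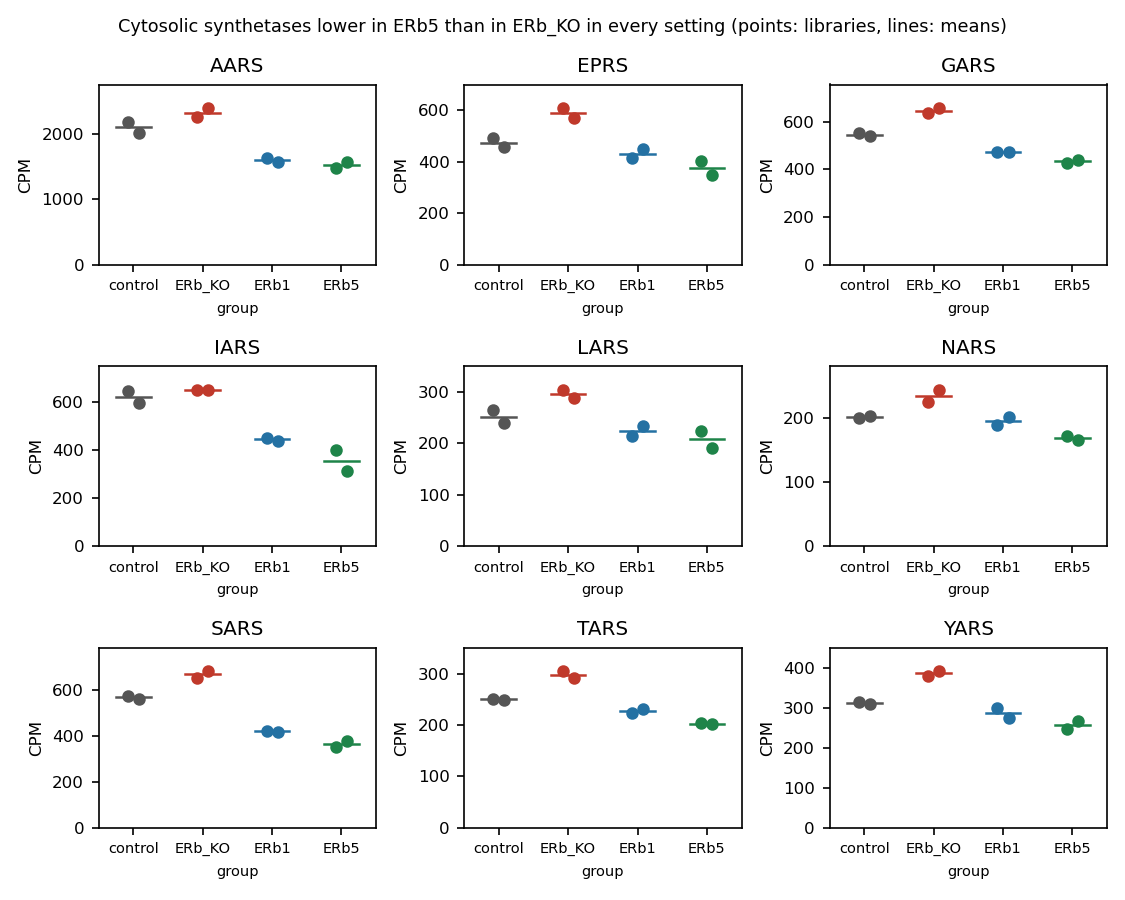
Level in CPM of the 9 cytosolic genes whose fall in ERb5 against ERb_KO held under all 15 alternatives, with a point for each library, a line for the mean of each group and axes from 0. In each panel both ERb5 libraries lie below both ERb_KO and both control libraries, and ERb_KO has the highest mean.

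**Figure D3:**
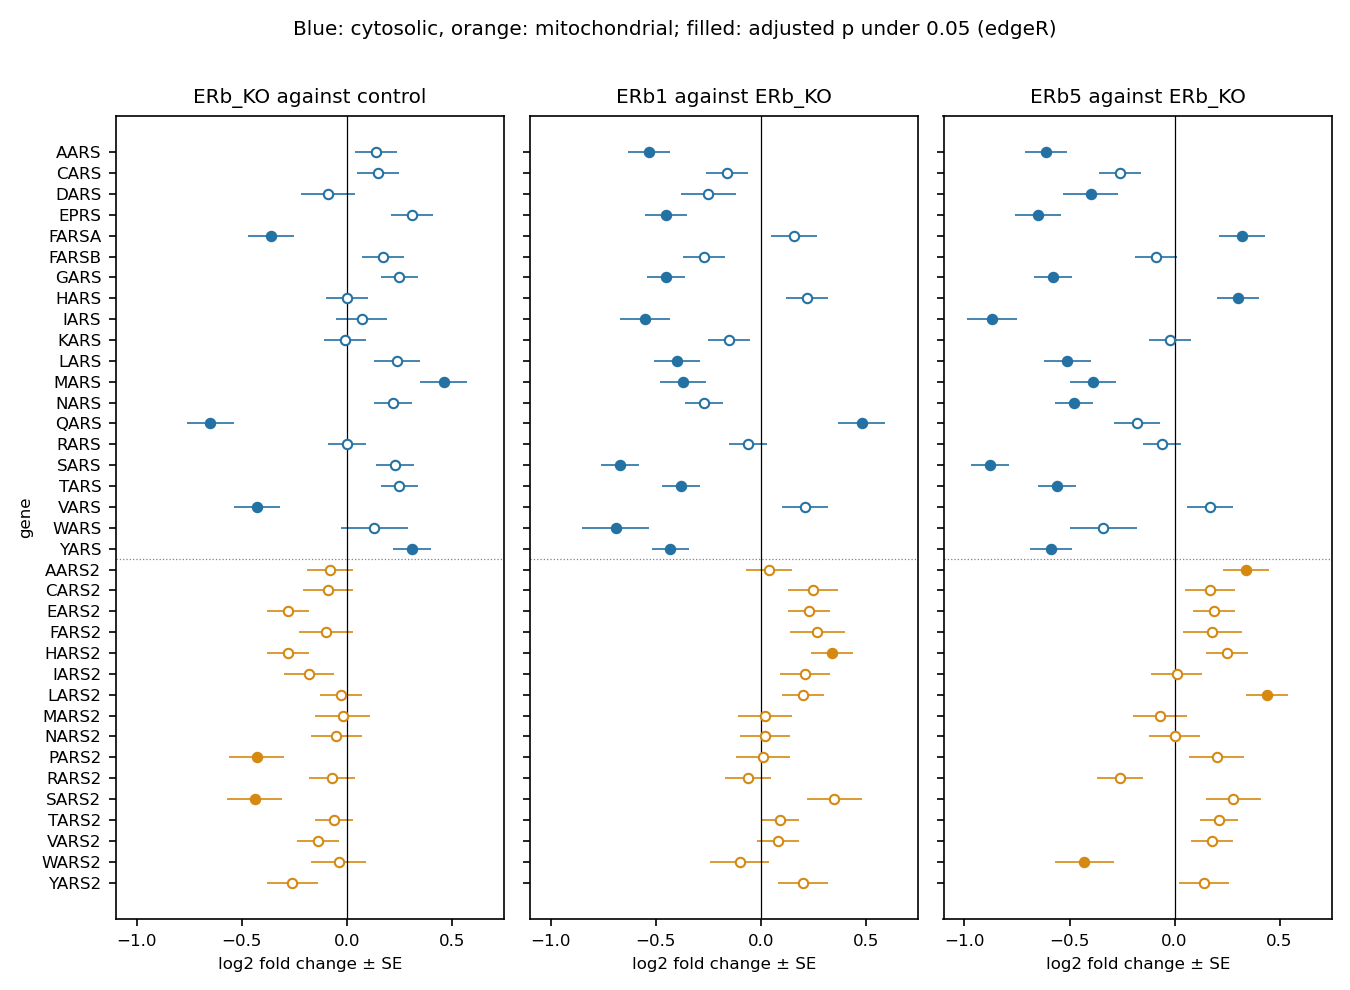
Log2 fold change of each member with its standard error in ERb_KO against control, ERb1 against ERb_KO and ERb5 against ERb_KO, with filled points for genes with an adjusted p under 0.05. The cytosolic medians are 0.15, -0.32 and -0.39, and the mitochondrial medians -0.1, 0.14 and 0.18.

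The cytosolic genes differed less between ERb_KO and control. Against control, 2 of 20 rose and 3 fell, where 17.5% of all genes were called, 8.98% as higher and 8.52% as lower. The share of members called was thus near that of all genes, and the median log2 fold change was 0.15 (all genes 0.01). With the GC and length trend removed the median was 0.07 (all genes 0). MARS rose by 0.46 ± 0.11 (edgeR adjusted p = 0.0158) and YARS by 0.31 ± 0.09 (adjusted p = 0.0454). VARS, the valine enzyme, fell by 0.43 ± 0.11 (adjusted p = 0.0218), FARSA by 0.36 ± 0.11 (0.039) and QARS by 0.65 ± 0.11 (0.00475). The libraries of the groups did not overlap for 12 genes in the higher and 4 in the lower direction, against 35.5% and 33.6% of all genes. None of these 5 calls held when libraries were left out in turn: the cytosolic count was 1 without control 1, 0 without control 2, 0 without ERb_KO 1 and 2 without ERb_KO 2. FARSA and VARS, the cytosolic members with the highest transcript GC content (61.29% and 61.71%), also lost the call with the GC and length trend removed (-0.06 and -0.17, adjusted p = 0.578 and 0.187), while SARS (0.33, 0.0157) and DARS (-0.42, 0.0156) gained one, so that 5 were again called.

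QARS, the glutamine enzyme (chr3:49133365-49142563, minus strand), differed from most of its class in ERb_KO and ERb1. It had 309 and 339 CPM in the control libraries, 202 and 212 for ERb_KO, 308 and 270 for ERb1 and 198 and 168 for ERb5. Control and ERb1 were high and ERb_KO and ERb5 low, with no overlap between the high and the low libraries. It rose in ERb1 against ERb_KO by 0.48 ± 0.11 (edgeR adjusted p = 0.0102) and had -0.18 ± 0.11 in ERb5 (adjusted p = 0.253). Between the isoforms it was the only member called, lower in ERb5 by 0.66 ± 0.11 on the log2 scale (adjusted p = 0.00609, or 0.0675 without ERb1 1), where 4.66% of all genes were called, 1.18% as lower. Its fall from control to ERb_KO was lost without control 2 or ERb_KO 1 (adjusted p = 0.07 and 0.0507).

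Cytosolic elongation factors, which bring charged transfer RNAs to the ribosome and move it along, are set beside QARS from a list of 6. All 6 fell in ERb_KO against control (median -0.66, EEF2 by 0.81 ± 0.12, edgeR adjusted p = 0.00265), and 3 rose in ERb1 against ERb_KO (median 0.33, EEF1A2 by 0.79 ± 0.11, adjusted p = 0.000483). In ERb5 against ERb1, 5 of 6 fell (median -0.62, EEF1A2 by 0.73 ± 0.11, adjusted p = 0.00251). In ERb5 against ERb_KO, 1 of 6 was called, EEF1A1, which fell by 0.42 ± 0.14 (adjusted p = 0.0471). Among all genes, 8.52% were called lower in ERb_KO against control and 12.4% higher in ERb1 against ERb_KO. For ERb5, 1.18% were called lower against ERb1 and 13.5% lower against ERb_KO. EEF2 had 9300 and 8580 CPM in the control libraries, 4730 and 5500 for ERb_KO, 7110 and 6490 for ERb1 and 4690 and 3970 for ERb5.

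WARS, the tryptophan enzyme (chr14:100800127-100843142, minus strand) and the synthetase known to be induced by interferon gamma, had 943 and 912 CPM in the control libraries, 928 and 1100 for ERb_KO, 633 and 628 for ERb1 and 646 and 956 for ERb5. The ERb5 libraries lay 0.57 apart on the log2 scale, the widest gap of any member in any group. WARS fell in ERb1 against ERb_KO by 0.69 ± 0.16 (edgeR adjusted p = 0.0096), which was lost without ERb_KO 2 (0.0662) or ERb1 1 (0.0782). In ERb5 against ERb_KO it had -0.34 ± 0.16 (adjusted p = 0.12), which became -0.66 (0.00583) without ERb5 2. In ERb5 against ERb1 it had 0.35 (adjusted p = 0.271), which became 0.6 (0.00606) without ERb5 1.

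Of 9 interferon-response genes, 6 rose in ERb_KO against control, 6 fell in ERb1 against ERb_KO and 7 rose in ERb5 against ERb_KO. The shares of all genes called in the same directions were 8.98%, 12.5% and 14.7%. Their summed level was 282 and 287 CPM in the control libraries, 1910 and 1840 for ERb_KO, 527 and 585 for ERb1 and 2880 and 5870 for ERb5. IFIT1, an antiviral protein that binds foreign RNA, rose by 3.65 ± 0.23 in ERb_KO (edgeR adjusted p = 4.83e-05), where WARS had 0.13 ± 0.16 (adjusted p = 0.584). The ERb5 library with the higher interferon sum, ERb5 2, was also the one with the higher WARS level. In control, ERb_KO and ERb1 the order was the other way, with WARS lower in the library with the higher sum.

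**Figure D4:**
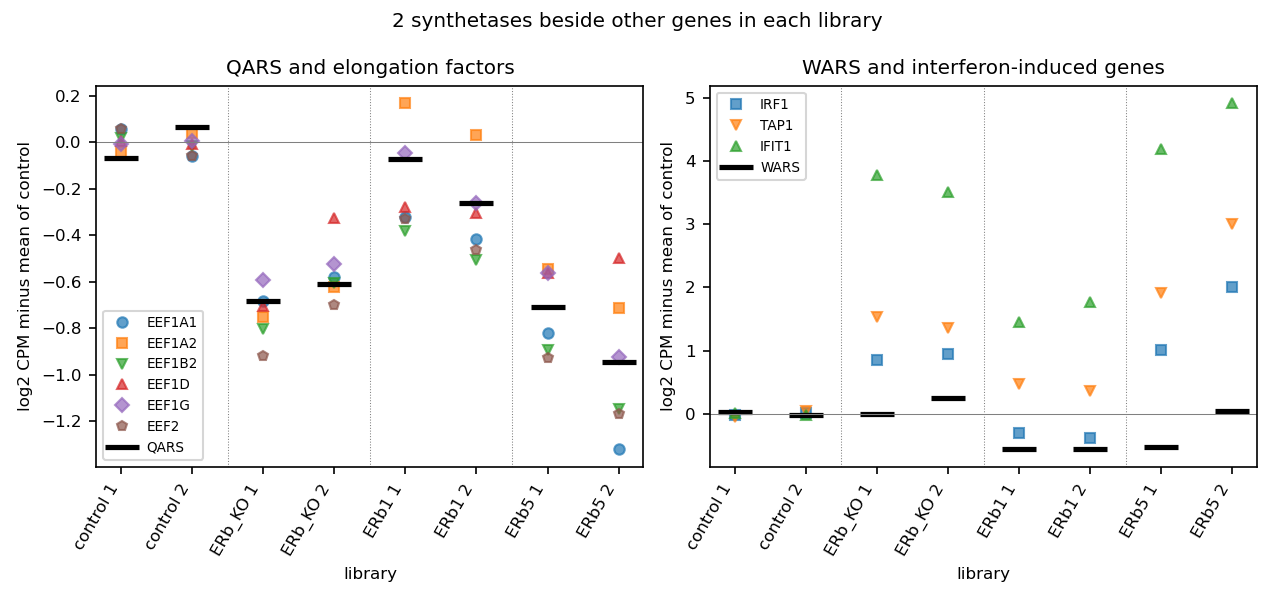
Log2 CPM minus the control mean in each library for QARS with the 6 elongation factors (left) and for WARS with 3 interferon-induced genes (right), the synthetases as black bars and the other genes as coloured markers. QARS is low in the ERb_KO and ERb5 libraries along with the elongation factors, while WARS stays within 0.6 of control as IFIT1 lies more than 3 above it in ERb_KO.

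FARSA and FARSB encode the 2 kinds of subunit of the cytosolic phenylalanine enzyme, and their levels differed in pattern before any GC correction. FARSA had 152.2 and 153.6 CPM in the control libraries, 111.8 and 126.4 for ERb_KO, 139 and 127.7 for ERb1 and 137.9 and 159.6 for ERb5. FARSB had 107 and 105.9, 118.9 and 121, 93.5 and 105.3, and 114.9 and 109.7. The ratio of their counts was 1.42 and 1.45 in the control libraries, 0.94 and 1.04 for ERb_KO, 1.49 and 1.21 for ERb1 and 1.2 and 1.45 for ERb5, lowest in both ERb_KO libraries. FARSA rose in ERb5 against ERb_KO by 0.32 ± 0.11 (edgeR adjusted p = 0.0443), and FARSB passed in no comparison. Their transcripts have 61.29% and 39.99% GC. With the GC and length trend removed, the changes of FARSA and FARSB were -0.06 and -0.08 in ERb_KO against control, -0.12 and -0.03 in ERb1 against ERb_KO, and -0.04 and 0.18 in ERb5 against ERb_KO (adjusted p = 0.11 to 0.788), so their difference in ERb_KO was not seen after that correction.

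HARS and HARS2, the histidine enzymes of the compartments, start next to each other on opposite strands of chromosome 5 and overlap by 108 bases. HARS rose in ERb5 against ERb_KO by 0.3 ± 0.1 (edgeR adjusted p = 0.0498, lost under 8 of 15 alternatives) and had 0.22 in ERb1. HARS2 had 75.4 and 81.5 CPM in the control libraries, 64.5 and 65 for ERb_KO, 83.9 and 80.4 for ERb1 and 75.7 and 78.7 for ERb5. It rose in ERb1 by 0.34 ± 0.1 (adjusted p = 0.0232) and had 0.25 in ERb5 (adjusted p = 0.0671). Both genes thus had higher mean levels in the isoform groups than in ERb_KO, unlike most cytosolic members. The ERb1 call in HARS2 was lost without any 1 of control 1, control 2, ERb_KO 1, ERb_KO 2 or ERb1 1 (adjusted p = 0.0564 to 0.107).

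In the comparisons that use the ERb_KO libraries, mitochondrial members changed little and mostly in the direction opposite to the cytosolic ones. The other comparisons did not have this opposition. In ERb5 against ERb1 the mitochondrial median was -0.07 beside a cytosolic -0.11. Against control it was -0.03 beside -0.16 in ERb1 and -0.07 beside -0.27 in ERb5. In ERb_KO against control all 16 log2 fold changes were below 0, from -0.44 to -0.02 with a median of -0.1, and with the GC and length trend removed 11 were below 0, 4 above (AARS2 and CARS2 at 0.08, VARS2 at 0.07, TARS2 at 0.04) and FARS2 at 0. The corrected median was -0.16. Without that correction 2 passed, both lower, where 8.52% of all genes were called lower. All genes were split into 7115 positive and 6800 negative. The groups did not overlap for 12 of the 16 in the lower direction, against 33.6% of all genes. ERb_KO was the lowest group for 13 of the 16, against 33.6% of all genes tested. Against ERb_KO, 1 mitochondrial gene rose in ERb1 (median 0.14), and 2 rose and 1 fell in ERb5 (median 0.18), fewer than the shares of all genes called. With the GC and length trend removed these medians were 0.1 and 0.08. Then 12 of 16 changes were above 0 and 4 below in ERb1, and 10 above and 6 below in ERb5.

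PARS2, the mitochondrial proline enzyme, had 14 and 13.9 CPM in the control libraries, 9.96 and 10.7 for ERb_KO, 10.6 and 10.2 for ERb1 and 11.6 and 12.2 for ERb5. It fell in ERb_KO by 0.43 ± 0.13 (edgeR adjusted p = 0.0369), and the ERb1 libraries were at the level of ERb_KO. SARS2 (serine) had 29.1 and 30.1, 20.8 and 22.8, 28.5 and 27, and 23.7 and 29.2 CPM, and fell in ERb_KO by 0.44 ± 0.13 (adjusted p = 0.0346). SARS2 was lowest in both ERb_KO libraries, where SARS was highest. Both calls were lost when any library of control or ERb_KO was left out (adjusted p = 0.0692 to 0.219) and with the GC and length trend removed (-0.33 for PARS2 and -0.14 for SARS2, adjusted p = 0.0636 and 0.291).

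LARS2 (leucine) had 56.3 and 58.8 CPM in the control libraries, 60.6 and 52.4 for ERb_KO, 65.4 and 64.2 for ERb1 and 78.9 and 74.4 for ERb5. It rose in ERb5 by 0.44 ± 0.1 against ERb_KO (edgeR adjusted p = 0.012, or 0.0922 without ERb_KO 2), while LARS fell. AARS2 (alanine) had 26.7 and 27, 25.2 and 25.8, 26.7 and 25.9, and 31.9 and 32.6 CPM, and rose by 0.34 ± 0.11 (adjusted p = 0.0339). Its ERb5 libraries were above the other 6. WARS2 (tryptophan) had 32.7 and 29.1, 28 and 32.2, 24.9 and 31, and 22.9 and 21.6 CPM, and fell by 0.43 ± 0.14 (adjusted p = 0.0363). The AARS2 and WARS2 calls were lost with the GC and length trend removed (0.13 and -0.23, adjusted p = 0.301 and 0.144) and without any 1 of 6 and 5 libraries respectively (adjusted p = 0.0562 to 0.187). The other 10 mitochondrial members, CARS2, EARS2, FARS2, IARS2, MARS2, NARS2, RARS2, TARS2, VARS2 and YARS2, passed in none of the 6 comparisons.

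Set beside each other, the change of the cytosolic gene was below that of its mitochondrial counterpart in 14 of 15 pairs in ERb1 against ERb_KO (median difference -0.48) and in 11 of 15 in ERb5 (median -0.43). In ERb_KO against control it was above in 13 of 15 (median 0.26). The pairs cover 14 amino acids, since FARSA and FARSB share FARS2. No GC correction was made for these differences. The serine pair had the widest difference, -1.02 in ERb1 and -1.16 in ERb5.

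**Figure D5:**
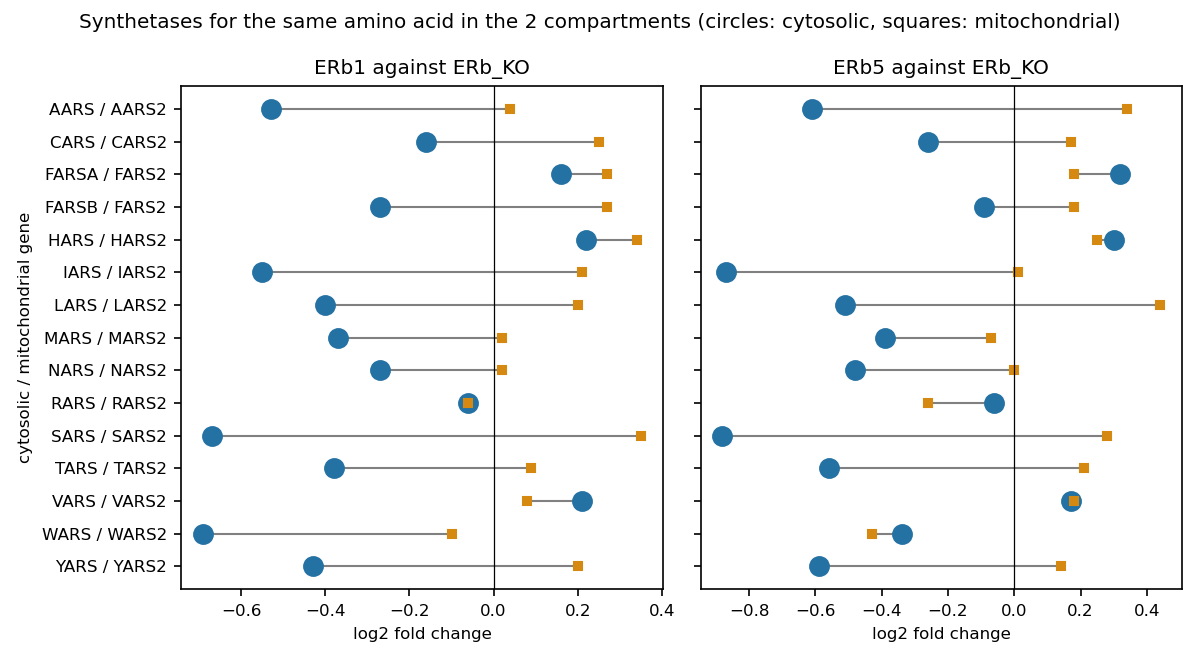
Log2 fold change against ERb_KO of the cytosolic (circles) and mitochondrial (squares) synthetase gene for the same amino acid, in ERb1 and in ERb5. In ERb1 the circle lies to the left of the square in 14 of 15 pairs, and in ERb5 in 11 of 15.

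Members of the multi-synthetase complex and free cytosolic enzymes had similar medians. In ERb1 against ERb_KO, 4 of 8 complex genes fell and 1 rose (median -0.31), and 6 of 12 free ones fell (median -0.33). In ERb5 the counts were 5 lower for the complex (median -0.39) and 6 lower and 2 higher for the free enzymes (median -0.41). No test of the difference between these subsets was made. Of the 3 scaffolds, EEF1E1 fell in ERb1 by 0.55 ± 0.18 (edgeR adjusted p = 0.0431), and AIMP1 and AIMP2 passed in no comparison. XPOT, which exports transfer RNAs from the nucleus, fell by 0.76 ± 0.12 in ERb1 and 0.9 ± 0.12 in ERb5 against ERb_KO (adjusted p = 0.0013 and 0.000822). Over the 21 genes of transfer RNA maturation and export, 4 fell and 3 rose in each of these comparisons (medians 0.06 and 0.13). Of 21 genes of RNA polymerase III and its factors, which transcribe transfer RNAs, 2 rose and 2 fell in ERb1 and 3 rose and 1 fell in ERb5. Among all genes, 24.9% were called in ERb1 and 28.2% in ERb5 against ERb_KO.

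Genes of the ATF4 and amino acid response fell with the cytosolic synthetases. Of 30 on the list, which holds no synthetase, 18 passed in ERb1 against ERb_KO, each lower (median -0.45), and 18 in ERb5, each lower (median -0.48). The shares of all genes called lower were 12.5% and 13.5%. In ERb_KO against control, 6 rose and 1 fell (median 0.17), where 8.98% of all genes were called higher and 8.52% lower. The isoform groups were also below control. There 5 fell and 0 rose in ERb1 (median -0.33), and 10 fell and 0 rose in ERb5 (median -0.38). The shares of all genes called lower than control were 2.7% and 6.31%. ASNS, which makes asparagine, had 384 and 364 CPM in the control libraries, 583 and 608 for ERb_KO, 303 and 356 for ERb1 and 264 and 327 for ERb5. It rose in ERb_KO by 0.67 ± 0.12 (edgeR adjusted p = 0.00535) and fell by 0.85 ± 0.12 in ERb1 (0.000668) and 1.01 ± 0.12 in ERb5 (0.000468). SLC7A11, the cystine transporter, rose by 1.44 ± 0.14 in ERb_KO (adjusted p = 0.000221) and fell by 1.37 ± 0.14 in ERb1 (5.74e-05) and 0.99 ± 0.14 in ERb5 (0.000945). The transcript of ATF4 itself did not pass (-0.19, -0.1 and -0.15), and its protein, which is regulated at translation, was not measured.

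The promoter element shown above was present in 6 cytosolic genes and missing from the window of 10. Of the 6, 5 fell in ERb5 against ERb_KO (median -0.52) and 4 in ERb1 (median -0.38). Of the 10 without it, 3 fell and 2 rose in ERb5 (median -0.14), and 4 fell and 1 rose in ERb1 (median -0.21). DARS, LARS, VARS and YARS had no matched promoter and are in neither count. Of these, DARS, LARS and YARS fell in ERb5 and LARS and YARS in ERb1, while VARS was called in neither. A part of the element in the falls was not tested. Among all genes, 13.5% were called lower in ERb5 and 12.5% in ERb1. SARS, EPRS and GARS fell without the element in this window. The element was in 5 of 23 matched promoters of the ATF4 list (21.7%).

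Against control, the isoform groups had fewer changes. In ERb1, 2 cytosolic genes fell, IARS by 0.48 (edgeR adjusted p = 0.0424) and SARS by 0.44 (0.0227), where 4.06% of all genes were called, 2.7% as lower. WARS had the lowest log2 fold change of the cytosolic genes there, -0.56, and AARS had -0.38. Neither was called in the main edgeR fit, but both passed by DESeq2 (adjusted p = 0.0111 and 0.00809). In ERb5, 7 fell, where 13.2% were called, 6.31% as lower and 6.85% as higher: AARS, DARS, GARS, IARS, QARS, SARS and TARS. Of these, QARS (-0.82 ± 0.11, adjusted p = 0.000785), IARS (-0.8, 0.00109) and SARS (-0.64, 0.00104) held under all 15 alternatives. The cytosolic medians were -0.16 in ERb1 and -0.27 in ERb5. In the mitochondrial set LARS2 rose (0.41, adjusted p = 0.0233) and WARS2 fell (-0.47, 0.0425) in ERb5, and no member passed in ERb1 by edgeR, with 1 at an unadjusted p under 0.05 and 0 by DESeq2. Both isoform comparisons share the control libraries, and AARS, DARS, GARS, IARS, SARS and TARS each lost at least 1 call against control when control 1 or control 2 was left out (adjusted p = 0.0542 to 0.403), as did LARS2 and WARS2 (0.103 to 0.324).

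Between ERb5 and ERb1 directly, QARS was the only synthetase called among 36. The cytosolic median was -0.11 and the mitochondrial -0.07 (all genes -0.01), and no mitochondrial gene passed by edgeR (3 at an unadjusted p under 0.05, 0 by DESeq2). IARS had -0.32 (edgeR adjusted p = 0.159) and SARS -0.21 (0.26), and neither difference between the isoform groups passed. ERb5 had the lowest mean of the 4 groups for 12 of 20 cytosolic genes, against 25.3% of all genes tested, and ERb_KO the highest for 13, against 33.3%.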

How the data were processed

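Total RNA of 8 libraries was sequenced as single-end reads of 50 bases. Per the submitters' processing notes, reads were handled with bcl2fastq, TopHat2 2.0.8b, hg19 and HTSeq. The deposited values are raw counts per gene, with 5 closing entries that name no gene and were left out (7.01 to 7.79% of reads in no gene, 0.54 to 0.561% ambiguous, 34.7 to 39.9% not unique). Neither strand setting nor annotation release is given in the sources used here, and reads listed as not unique are in no gene count.

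Genes were filtered with filterByExpr (minimum count 10, minimum total 15), TMM-scaled and tested in edgeR 4.0.16 in R 4.3.3 (robust quasi-likelihood F test, all 8 libraries in a single fit, 4 residual degrees of freedom). Benjamini-Hochberg adjustment ran over 13915 genes, and an adjusted p under 0.05 was called, higher and lower separately. A standard error is the size of the log2 fold change over the root of its F, and CPM values are TMM-scaled. The script was tested on simulated data: of genes changed by 1 on the log2 scale, 77.8% were recovered for ERb_KO against control over 13791 genes, and 27.3% of those changed by 0.5.

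Replicate libraries differed by more than sampling noise (chi-square per degree of freedom 7.69 to 42.12), so none was merged. Positions and transcript GC content come from GENCODE on GRCh37, the build of hg19, and promoters from RefSeq. Values in every library are given for members called in at least 1 comparison and among the 12 cytosolic or 6 mitochondrial ones with the largest change, and for WARS, GARS, KARS, EPRS, FARSA and FARSB. Genes of other lists are named for the size of their change or, as with KRT8, EEF2 and XPOT, after their values were seen. 1 gene of the interferon list is not reported here. The members and lists were chosen with earlier results of these data known. Alternatives were 2 other size factors, no filter, DESeq2 1.42.0, a replicate block, only the groups compared, removal of a GC and length trend (lowess), and leaving out each library.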

Additional observations from a re-analysis of the deposited data

Results flagged for a closer look

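QARS was flagged because its response differed between the isoform groups by a direct test. Its log2 fold change in ERb5 against ERb1 was -0.66 ± 0.11 (edgeR adjusted p = 0.00609), with 308 and 270 CPM in ERb1 and 198 and 168 in ERb5. Against the same ERb_KO libraries it rose by 0.48 in ERb1 and had -0.18 in ERb5. Without ERb1 1 the adjusted p was 0.0675.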

How the results depend on the processing

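Over the members' 3240 values under the alternatives, 127 lost a call with the sign kept, 1 lost it with the sign changed, and 67 gained one. The sign changed in 72, of which 26 were with the GC and length trend removed. Only 1 of these 72 was a called value, FARSA in ERb5 against ERb_KO, at -0.04 with the trend removed, and the others had log2 fold changes of at most 0.28 in size. In ERb_KO against control, 4351 genes, 9 cytosolic and 4 mitochondrial were called with only the groups compared, and 1596 genes with the trend removed. In ERb1 against ERb_KO, the mitochondrial count was 2 with upper quartile factors, 0 with only the groups compared and 2 with the trend removed. In ERb5 against ERb_KO, 2421 genes were called with the trend removed. In ERb5 against ERb1, 1375 genes and 2 cytosolic were called without the filter, 421 genes with only the groups compared and 1179 with the trend removed. In ERb1 against control, the counts were 1384 genes without the filter, 853 by DESeq2, 1107 with only the groups compared and 1332 with the trend removed, with 4, 4, 4 and 5 cytosolic, and 1 mitochondrial with the trend removed. In ERb5 against control, 2935 genes and 12 cytosolic were called with the trend removed. The cause of these shifts was not tested.

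Leaving out each library in turn gave 237 to 3226 genes in ERb_KO against control, 1198 to 4203 in ERb1 and 1674 to 4378 in ERb5 against ERb_KO, 125 to 1389 in ERb5 against ERb1, and 128 to 975 in ERb1 and 587 to 2143 in ERb5 against control. Cytosolic counts ran from 0 to 6, 5 to 13, 10 to 13, 0 to 3, 0 to 4 and 3 to 7 in the same order, and mitochondrial counts from 0 to 2, 0 to 2, 0 to 3, 0 to 1, 0 to 0 and 0 to 3. The lone library of a group so reduced is assumed to vary like the other groups.

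With a replicate block, 4, 11, 12, 1, 2 and 7 cytosolic genes and 2532, 3519, 3929, 652, 581 and 1850 genes in all were called in that order. Deviations of same-numbered libraries correlated at -0.12 to 0.139 between groups. With 2 libraries a group, these values cannot show whether same-numbered libraries share more than a number.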
